A study of Mus musculus with 6 samples.

Results

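The Trim genes encode tripartite motif proteins, most of which carry a RING finger, B-box zinc fingers and a coiled coil in that order and act as ubiquitin ligases. Members were all genes of the deposited tables whose symbol is Trim followed by a digit, without pseudogenes named -ps, which gave 67 of 47643 annotated genes. RNA came from CD4+ FOXP3-GFP+ cells, that is regulatory T cells sorted by a fluorescent reporter of their defining transcription factor, from mouse bone marrow. The myeloma group held 3 libraries from mice injected with Vk*MYC, a model of multiple myeloma (a cancer of plasma cells), and the control group held 3 libraries from control mice. Both groups carried the FOXP3-GFP reporter. The sources used here do not give strain, age, sex, time after injection or what the control mice received. The series title names blockade of an interferon receptor, written IFNRA1, so the question for this family was how its interferon-inducible members compared with the rest.

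Trim proteins serve several branches of innate immunity. Type I interferon switches on a subset of them, and these tag viral proteins, RNA sensors or signalling adaptors with ubiquitin, some raising and some restraining the response. Mice carry an expanded run of such genes, the Trim5, Trim12, Trim30 and Trim34 group, related to human TRIM5, TRIM6, TRIM22 and TRIM34. Other members are made without interferon and act in the nucleus, where Trim24, Trim28 and Trim33 bind chromatin, or on the cytoskeleton and in membranes. The members were divided by textbook knowledge into 16 interferon-inducible genes (Trim5, Trim6, Trim12a, Trim12c, Trim14, Trim21, Trim25, Trim26, Trim30a to Trim30d, Trim34a, Trim34b, Trim38 and Trim56) and 51 others. Many of the 51 are restricted to muscle, testis or nerve, so they are called the other members here rather than constitutive ones.

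Total expected counts, RSEM's estimates of reads per gene, ran from 10240620 to 13314631 per library. Values below are CPM, a gene's share of its library's reads with TMM scaling, unless TPM, the level per transcript length, is named. The 6 regulatory T cell markers (Foxp3, Cd4, Cd3e, Il2ra, Ctla4 and Ikzf2) summed to between 4148 and 4388 CPM in myeloma and between 3902 and 5244 CPM in controls, and edgeR called none of the 6, with 1 (Il2ra, lower) at an unadjusted p under 0.05. DESeq2 and limma-voom called none either. RNA of other marrow cells was present. Plasma cell markers (7 genes, 3 of the 6 tested called higher) summed to 1240 to 1552 CPM in myeloma and 1021 to 1110 CPM in controls. Most of that sum was Ighm, which was not called (log2 fold change 0.12) and hides larger differences in the 3 called genes. Jchain stood at 37.7, 118 and 199 CPM in myeloma and 3.67, 0.60 and 3.70 CPM in controls. Igha stood at 102, 81.5 and 37.6 CPM against 2.18, 0.09 and 16.8 CPM. Sdc1 stood at 1.10, 9.23 and 25.2 CPM against 1.25, 0.60 and 1.45 CPM. Macrophage markers (2 of 6 called higher) reached 302 CPM in myeloma replicate 5, with 38.5 and 72.2 CPM in replicates 3 and 4, and lay between 21.9 and 48.5 CPM in controls. Erythroid markers (5 of 8 called lower) summed to 3863 to 4796 CPM against 6746 to 14778 CPM, and B cell markers (3 of 7 called lower) to 27.6 to 67.9 CPM against 42.8 to 265 CPM. The neutrophil list summed to 133 to 457 CPM in myeloma and 62.4 to 178 CPM in controls, and the plasmacytoid dendritic cell list to 61.7 to 78.1 and 76.7 to 83.2 CPM, with no member of either called. CD8 T cell markers summed to 13.5 to 22.4 and 11.0 to 13.8 CPM and NK cell markers to 1.86 to 3.04 and 2.23 to 3.48 CPM. No marker of these 9 lists was at 0 in all libraries. In bulk RNA, fewer cells of a type and less RNA per cell cannot be told apart.

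In myeloma, 7 of the 42 Trim genes with enough counts for the test rose and 1 fell, by edgeR's quasi-likelihood test at an adjusted p of 0.05. All 7 that rose were on the interferon-inducible list, where 7 of 14 tested members rose and none fell. They were Trim30c, Trim30d, Trim30a, Trim34a, Trim21, Trim12c and Trim12a. Trim30c passed the count filter in 3 myeloma libraries and only 1 control library. The 7 of 14 thus includes a gene that entered the test through the group where it is high. Among the 28 other members tested none rose and 1 fell, Trim33. At an unadjusted p under 0.05 edgeR gave 1 higher (Trim46) and 3 lower among these others and no lower gene among the inducible members. DESeq2 and limma-voom each called 8 inducible members higher and none lower, and 1 other member lower and none higher. Of the same 13235 genes DESeq2 called 1086 higher and 970 lower, and limma-voom called 791 higher and 586 lower. Over all 13235 genes tested, 6.33% were called higher and 4.69% lower. The share called higher was thus 50% of the inducible members, Trim30c included, and 0% of the others against a background of 6.33%. The share called lower was 3.6% of the others against 4.69%. Without scaling factors (library sizes alone) the calls over all genes were 633 higher and 1004 lower, where TMM gave 838 and 621. That setting left 6 of the inducible members called higher and none lower.

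**Figure D1:**
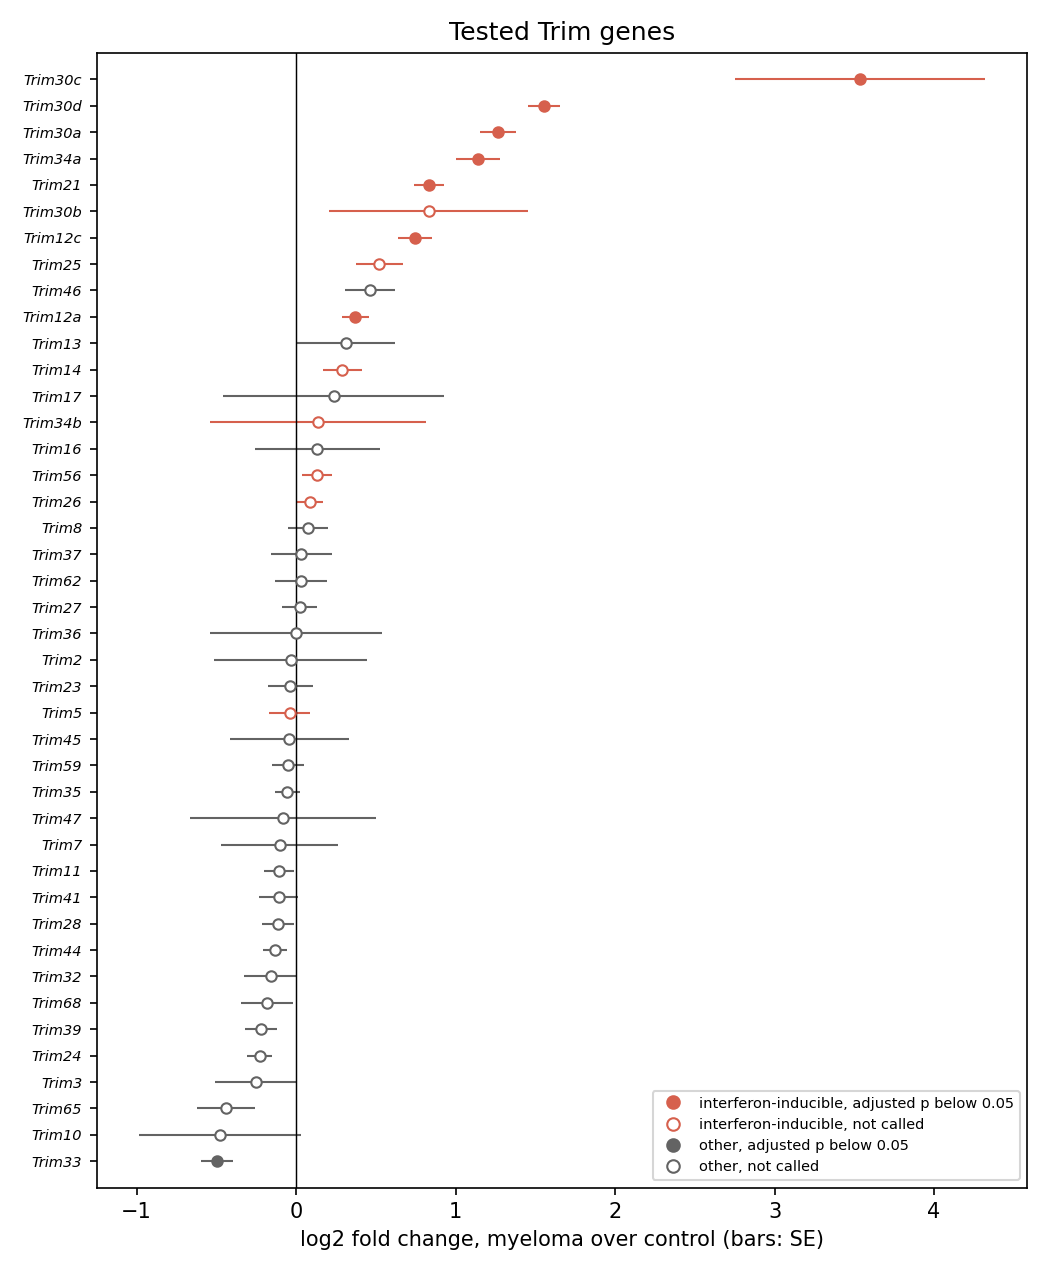
Log2 fold change (myeloma over control, horizontal axis) of the 42 tested Trim genes, 1 per row, with bars for the SE. Filled points passed the test, and colour gives the list. The 7 filled inducible members lie between 0.37 and 3.54, and Trim33 at -0.49 is the only filled point to the left of 0.

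The median log2 fold change was 0.63 over the 14 inducible members tested, -0.07 over the 28 others and 0.02 over all genes tested. Of the inducible members 13 had a positive estimate and 1 a negative one. The others had 8 positive and 20 negative estimates, with a range from -0.49 to 0.46. All 3 myeloma values lay above all 3 control values for 8 of 14 inducible members (57.1%) and 1 of 28 others (3.6%), where 17.3% of all tested genes did so. The reverse order held for no inducible member and 5 of 28 others (17.9%), where 16% of all tested genes did so. That last share is near the background. Most tested members (38 of 42) had enough counts in all 6 libraries. Trim30c passed the count filter in 3 myeloma libraries and only 1 control library, so its entry into the test depended on the group where it is high.

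The genes of the Trim30 group and their neighbours lie in a single cluster. On chromosome 7, 10 members stand within 289 kb, from Trim6 at 104218793 to the end of Trim30d at 104507849 (mm10, GENCODE M21). The sequence around the start sites is shown first, because most of the genes that rose hold a short repeat there, some before the annotated start and some just after it. The repeat searched, the core of the interferon-stimulated response element, was GAAA followed after any 2 bases by a further GAAA, or its reverse complement (TTTC, any 2 bases, TTTC), which covers both strands of RefSeq promoter windows in GRCm38.p6 that reach from 250 bases before the annotated start to 50 bases after it. Overlapping matches were both counted. Windows were found for 52 of the 67 members. A match was present in 6 of the 7 genes that rose, all except Trim30c. It was present in 8 of the 15 inducible members with a window, namely those 6 with Trim5 and Trim26, and in 1 of the 37 others, Trim2. Over all genes with a window 3.99% had a match, and over all 300-base windows 3.44% did. In what follows capitals mark the match, and each sequence is read in the direction of the gene. A match is a description of these letters and not evidence of a bound factor.

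The upstream stretches of Trim30a and Trim30d are shown because their windows share an identical run of 118 bases that contains the match, and both genes rose. Each ends at the base before the annotated start, on the minus strand (chr7:104465194-104465273 for Trim30a and chr7:104507850-104507929 for Trim30d).
Trim30a: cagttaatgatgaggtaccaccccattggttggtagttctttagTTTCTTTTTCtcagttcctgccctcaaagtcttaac
Trim30d: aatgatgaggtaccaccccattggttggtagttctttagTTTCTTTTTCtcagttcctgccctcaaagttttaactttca

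Trim12c, Trim5 and Trim12a are shown together because they carry the same matched letters and did not move alike. Trim12c (chr7:104353350-104353429) and Trim5 (chr7:104288107-104288186) are given as the 80 bases before the start on the minus strand. For Trim12a the annotated start lies before the match, and the first 30 bases after that start are printed (chr7:104315466-104315495, minus strand). The windows of Trim5 and Trim12a share an identical run of 241 bases that contains the match, so the difference in distance comes from the annotated starts. The longest identical run of Trim12c with Trim5, and likewise with Trim12a, is 71 bases and does not contain the match. A separate, shorter identical stretch does contain it. In the printed sequences all of these genes read agagttgtgg directly before the match and atttccag directly after it.
Trim12c: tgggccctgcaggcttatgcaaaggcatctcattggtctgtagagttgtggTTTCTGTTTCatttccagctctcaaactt
Trim5: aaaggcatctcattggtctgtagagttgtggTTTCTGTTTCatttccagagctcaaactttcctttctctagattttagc
Trim12a: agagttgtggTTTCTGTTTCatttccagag

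The 2 remaining genes that rose and carry a match have it just after the annotated start. Trim21 (chr7:102565447-102565476, minus strand) has 2 overlapping matches, and Trim34a (chr7:104244457-104244486, plus strand) has 1.
Trim21: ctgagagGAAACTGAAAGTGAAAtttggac
Trim34a: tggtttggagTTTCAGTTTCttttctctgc

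A match and a call did not always go together. Trim5, Trim26 and Trim2 have a match and were not called, and Trim30c has none and rose. Trim26 and Trim30c are shown as 1 example of each. Trim26 has 2 overlapping matches farther upstream of its start (chr17:36836954-36837033, plus strand) and was not called. Trim30c has no match in its window, whose last 80 bases before the start are printed (chr7:104400779-104400858, minus strand), and rose.
Trim26: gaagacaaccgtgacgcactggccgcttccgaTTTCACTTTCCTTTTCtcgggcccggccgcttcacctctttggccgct
Trim30c: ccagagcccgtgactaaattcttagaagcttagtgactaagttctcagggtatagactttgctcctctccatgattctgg

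The gamma-activated sequence, searched as TTCNNNGAA, was found in the windows of 6 members (Trim15, Trim30c, Trim31, Trim38, Trim45 and Trim46) and in 9.55% of all genes with a window. Of these 6 genes only Trim30c was called, and Trim15, Trim31 and Trim38 had too few counts for the test.

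Trim30a encodes a protein known to restrain NF-kB signalling by removing adaptors of the TAK1 kinase. Its level was 383, 361 and 469 CPM in myeloma replicates 3, 4 and 5 and 176, 159 and 169 CPM in control replicates 1, 3 and 5. The lowest myeloma library was above the highest control by more than the whole spread within either group. Trim30a (ENSMUSG00000030921.16, 7:104409025-104465193) thus rose 2.41-fold (log2 fold change 1.27, SE 0.11, edgeR adjusted p = 0.00028). Per transcript length, at 177 TPM on average in myeloma and 91.8 TPM in controls, it stood first among tested Trim genes in myeloma and behind Trim28, Trim12a, Trim14 and Trim26 in controls.

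Trim30d, a close relative of Trim30a that is less studied, stood at 155, 125 and 147 CPM in myeloma and 45.9, 49.3 and 50.2 CPM in controls. The 3 controls lay close together and far below every myeloma library. It rose 2.94-fold (log2 fold change 1.55, SE 0.10, edgeR adjusted p = 7.26e-05), and its adjusted p was the smallest of the family. Trim30c had expected counts of 62, 37 and 72 in myeloma and 5, 0 and 12 in controls. These are small numbers, with 1 control library at 0, and they gave a log2 fold change of 3.54 with the wide SE of 0.78 (edgeR adjusted p = 0.0238). Its call was lost when myeloma library 3 (0.0651) or 4 (0.063) or control library 1 (0.065) was left out. Trim30b, the fourth copy, stood at 1.86, 2.18 and 6.88 CPM in myeloma and 1.56, 1.20 and 3.34 CPM in controls. The groups overlapped, and the estimate of 0.83 (SE 0.62) turned to -0.02 without myeloma replicate 5, the library with the highest macrophage marker sum. The part of macrophage RNA in the Trim30b value was not tested.

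The Trim30 copies resemble each other, and RSEM divides reads that fit several of them by a model. Of all 50-base stretches in Trim30a transcripts 6.0% also occur in Trim30d, and of those in Trim30d 6.4% occur in Trim30a. Summed over Trim30a to Trim30d, which does not depend on the division among the 4, the level was 545, 492 and 629 CPM in myeloma and 224, 209 and 223 CPM in controls. The sum was 2.54 times as high in myeloma on average, and the groups did not overlap. Without myeloma replicate 5 the log2 fold changes of Trim30a and Trim30d were 1.14 and 1.53, both still called.

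**Figure D2:**
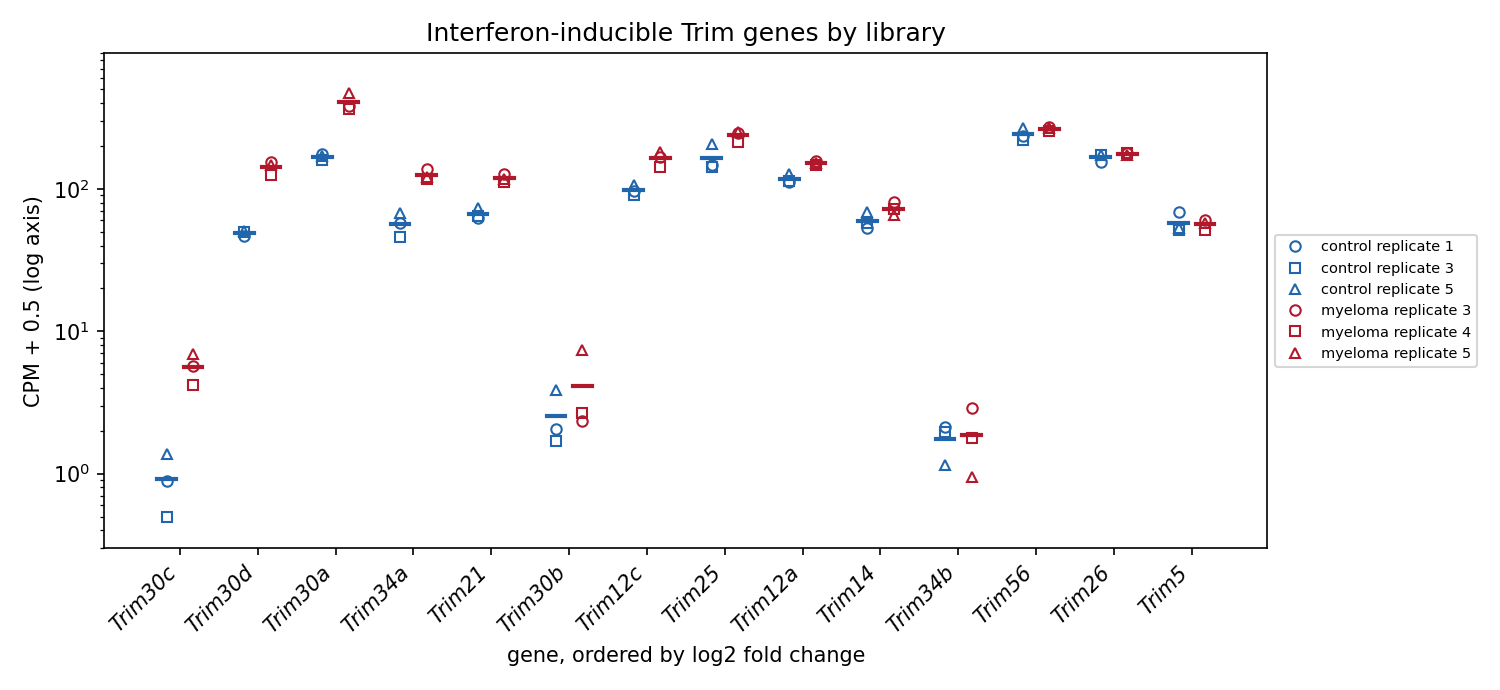
CPM plus 0.5 on a log axis for the 14 tested interferon-inducible members, ordered by log2 fold change, with 1 symbol per library and a bar at the group mean. The myeloma and control symbols separate from Trim30c to Trim21 and for Trim12c, Trim25 and Trim12a, and they overlap for Trim30b, Trim14, Trim34b, Trim56, Trim26 and Trim5.

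Trim34a, related to a human gene whose protein binds retroviral capsids, stood at 137, 117 and 121 CPM in myeloma and 57.4, 45.4 and 66.8 CPM in controls. Every myeloma library was above every control. It rose 2.21-fold (ENSMUSG00000056144.13, 7:104244457-104262234, log2 fold change 1.14, SE 0.14, edgeR adjusted p = 0.00193). Its copy Trim34b was scarcely detected, at 0.45 to 2.37 CPM in myeloma and 0.65 to 1.64 CPM in controls, and was not called (0.14, SE 0.68). Trim34b shares 56.8% of its 50-base stretches with Trim34a, so the split between them is uncertain. Their sum was 118 to 140 CPM in myeloma and 46.9 to 67.4 CPM in controls. An antisense gene, Gm47248, covers 23.5% of the exonic bases of Trim34a, and the library kit does not record strand.

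**Figure D3:**
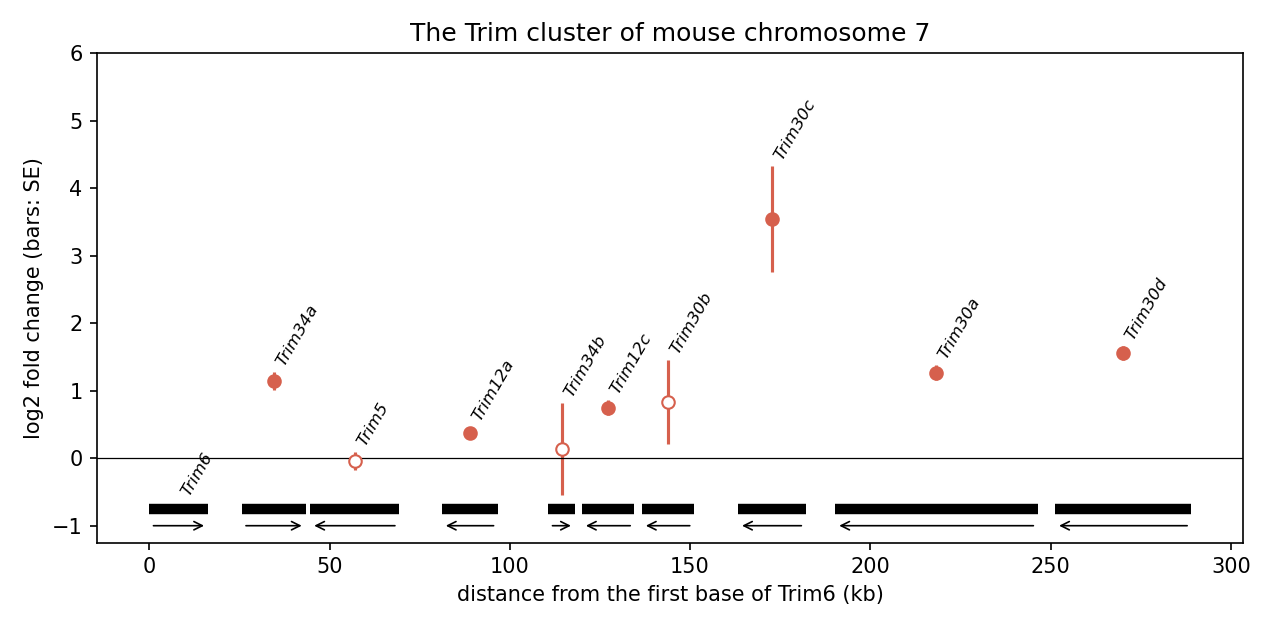
Log2 fold change with SE (vertical axis) of the 10 Trim genes of the chromosome 7 cluster against distance from the first base of Trim6 in kb, with gene bodies as black bars and the direction of transcription as arrows. Filled points passed the test: Trim34a, Trim12a, Trim12c, Trim30c, Trim30a and Trim30d. Trim5 at -0.04 lies between Trim34a at 1.14 and Trim12a at 0.37, and Trim6 had too few counts to be tested.

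Within this cluster 6 of the 9 members tested rose and none fell, where 6.33% of all genes tested were called higher and 4.69% lower. One of the 6, Trim30c, entered the test through the myeloma libraries. Neighbouring genes did not move equally. Trim5, a mouse relative of the human restriction factor TRIM5, stood at 59.8, 50.9 and 56.8 CPM in myeloma and 68.3, 51.3 and 52.8 CPM in controls. The groups overlapped fully (log2 fold change -0.04, SE 0.13, edgeR adjusted p = 0.871). The sign of that estimate turned without myeloma replicate 4 (0.02) or control replicate 1 (0.09). Trim12c, whose protein is known to promote NF-kB and interferon signalling, stood at 168, 142 and 180 CPM in myeloma and 96.4, 89.5 and 106 CPM in controls. It rose 1.68-fold without overlap of the groups (log2 fold change 0.75, SE 0.11, edgeR adjusted p = 0.00495). Trim12a stood at 157, 147 and 152 CPM against 111, 114 and 128 CPM. It rose 1.29-fold (log2 fold change 0.37, SE 0.08, edgeR adjusted p = 0.0261), a call that was lost when myeloma library 3 (0.0937) or 4 (0.0702) or control library 1 (0.0767) or 3 (0.116) was left out, and with library sizes alone (0.0619).

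Trim5 and Trim12c share sequence in their transcripts too. Of the 50-base stretches of Trim5 23.5% occur in Trim12c and 7.9% in Trim12a, so a part of their reads was assigned by the model. The ratio of Trim12c to Trim5 CPM was 2.81, 2.80 and 3.17 in myeloma and 1.41, 1.75 and 2.02 in controls, and the ratio of Trim12a to Trim5 was 2.62, 2.89 and 2.68 against 1.62, 2.22 and 2.42. Both ratios were higher in every myeloma library than in any control. The 3 genes summed to 384, 340 and 389 CPM in myeloma and 276, 254 and 287 CPM in controls, 1.36 times as high on average with no overlap.

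**Figure D4:**
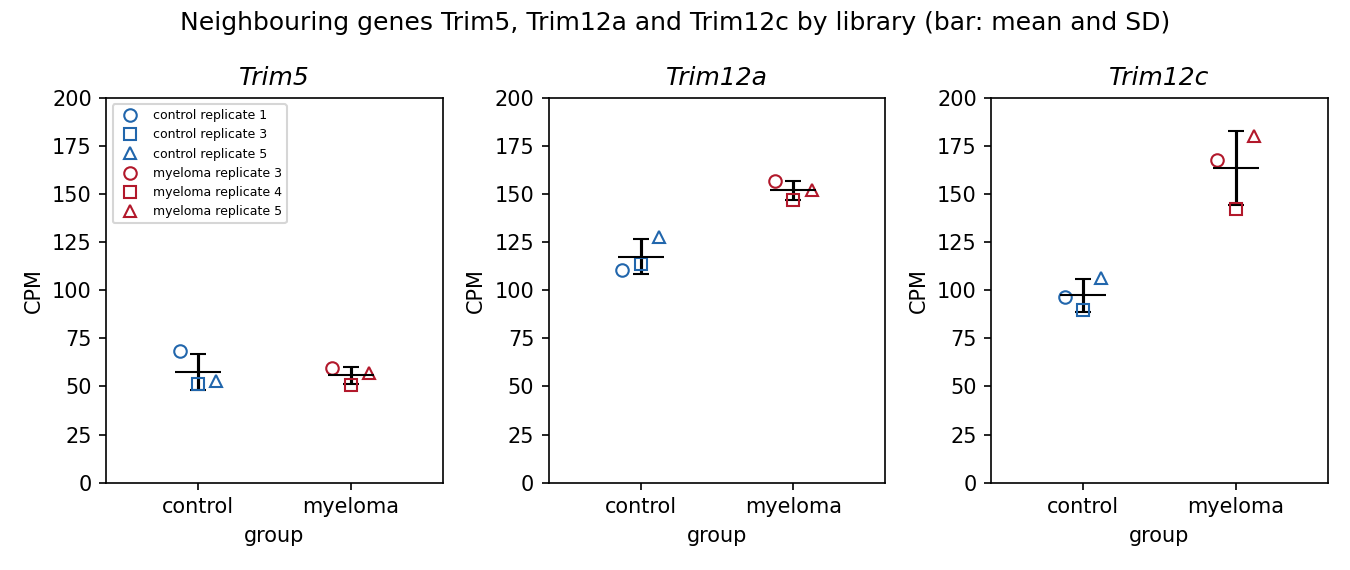
CPM of Trim5, Trim12a and Trim12c by group, with 1 symbol per library and bars for mean and SD (n = 3 per group). Trim5 is at 55.8 ± 4.51 in myeloma and 57.4 ± 9.41 in controls, whereas the myeloma symbols of Trim12a and Trim12c lie above all control symbols.

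Outside the cluster, 5 inducible members were measured well. Trim21, the cytosolic antibody receptor that directs antibody-coated viruses to the proteasome, lies on the same chromosome at 7:102557921-102565486. It stood at 127, 112 and 118 CPM in myeloma and 62.0, 64.4 and 72.9 CPM in controls, with the groups well apart. Trim21 rose 1.78-fold (log2 fold change 0.84, SE 0.09, edgeR adjusted p = 0.00124). Trim25, the ligase that acts with the RNA sensor RIG-I and the RNA-binding protein ZAP, stood at 247, 214 and 250 CPM in myeloma and 148, 141 and 207 CPM in controls. Its groups did not overlap, yet control replicate 5 lay near the lowest myeloma library and the gene just missed the threshold (log2 fold change 0.52, SE 0.15, edgeR adjusted p = 0.0505). Without control replicate 5 it passed (log2 fold change 0.71, adjusted p = 0.0102), and it passed with DESeq2 (0.00463) and limma-voom (0.0405) on all 6 libraries. In total Trim25 passed in only 4 of 17 alternative fits. It failed when any other library was left out, with an edgeR adjusted p of up to 0.179 (without control replicate 3).

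The remaining 3 were not called, and their groups overlapped. Trim14, an adaptor at mitochondria that supports RIG-I signalling, was at 79.9, 72.0 and 64.8 CPM in myeloma and 52.3, 56.8 and 68.3 CPM in controls (log2 fold change 0.29, SE 0.12, edgeR adjusted p = 0.163). The effective length that RSEM gave Trim14 was 1018 to 1137 bases in myeloma and 739 to 926 in controls, and with effective length as an offset its estimate turned to -0.08. The gene Nans covers 31.3% of its exonic bases on the opposite strand. Trim56, a ligase linked to the DNA-sensing adaptor STING, was at 272, 253 and 266 CPM in myeloma and 234, 220 and 268 CPM in controls (0.13, SE 0.09), and this estimate turned to -0.05 with the same offset. Trim26, which is known to limit IRF3 activity, was at 179, 178 and 172 CPM against 153, 173 and 173 CPM (0.09, SE 0.08). Trim6 and Trim38 completed the list with too few counts for the test. Trim6 had 7, 0 and 8 reads in myeloma and 2, 5 and 0 in controls, and Trim38 had 1 read in each group.

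Trim33 was the single member that fell. It encodes a nuclear regulator with a PHD finger and bromodomain (TIF1-gamma) that acts in TGF-beta signalling through Smad proteins. Its level was 71.6, 84.9 and 71.5 CPM in myeloma and 98.6, 115 and 107 CPM in controls, without overlap. The decrease was 1.41-fold (ENSMUSG00000033014.12, 3:103279293-103358775, log2 fold change -0.49, SE 0.10, edgeR adjusted p = 0.0178). The call was lost when myeloma library 3 (0.0648) or control library 3 (0.0821) or 5 (0.054) was left out. Its paralog Trim24 (TIF1-alpha) was at 66.3, 69.6 and 69.3 CPM in myeloma and 81.4, 76.4 and 82.3 CPM in controls. Those groups did not overlap either, but the gene was not called (-0.23, SE 0.08, edgeR adjusted p = 0.0979). Trim28, also called KAP1, is the corepressor by which KRAB zinc finger proteins silence endogenous retroviruses. It was at 148, 152 and 171 CPM in myeloma and 163, 157 and 190 CPM in controls, overlapping, and was not called (-0.11, SE 0.10). The 3 tested genes of this class all had negative estimates, and the fourth, Trim66, had 13 reads in all libraries together, none of them in myeloma.

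Trim28 was the most abundant member per transcript length in controls, at 182 TPM. The other members next in TPM over all 6 libraries were Trim59, a membrane-anchored ligase, Trim11, Trim27 and Trim8, a regulator of cytokine signalling. In CPM, Trim59 stood at 137, 165 and 132 in myeloma and 155, 150 and 145 in controls. Trim11 stood at 96.5, 101 and 85.0 against 95.7, 99.0 and 110 CPM. Trim27 stood at 68.2, 72.8 and 72.8 against 60.5, 69.7 and 80.4 CPM. In all 3 genes the groups overlapped. Trim8 stood at 106, 93.5 and 117 CPM against 92.1, 90.7 and 118 CPM, overlapping as well. The log2 fold changes of these 4 ran from -0.11 for Trim11 to 0.07 for Trim8 with SEs of 0.10 to 0.13, so changes as large as that of Trim30a lie many SEs away from the estimates.

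Of the other members tested, 3 besides Trim24 and the called Trim33 had all myeloma values below all control values, and these 3 were not called. They were Trim65, a ligase that acts on the RNA sensor MDA5, at 40.5 ± 9.30 CPM (SD, n = 3) in myeloma and 54.8 ± 9.38 CPM in controls, Trim39 at 98.5 ± 12.3 and 115 ± 4.0 CPM, and Trim44, which lacks a RING finger, at 117 ± 2.04 and 128 ± 6.53 CPM. Their log2 fold changes were -0.44 (SE 0.18), -0.22 (SE 0.10) and -0.13 (SE 0.08). They were named after their values were seen. Trim46, a microtubule organiser of the axon, had the highest estimate among the other members, at 15.2, 17.2 and 16.2 CPM in myeloma and 10.9, 12.4 and 11.8 CPM in controls. It was not called (0.46, SE 0.16, edgeR adjusted p = 0.0929). The gene Krtcap2 covers 6.3% of its exonic bases on the opposite strand and averaged 59.5 CPM in myeloma and 40.1 CPM in controls.

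Trim10, which is known for its part in red cell maturation, had the second lowest estimate, at 2.88, 3.57 and 12 CPM in myeloma and 8.82, 10.5 and 6.39 CPM in controls (-0.48, SE 0.51, edgeR adjusted p = 0.589). Myeloma replicate 5 was the highest of all 6 libraries and the other 2 myeloma libraries were the lowest. Without replicate 5 the gene was called lower (log2 fold change -1.41, adjusted p = 0.0299). Erythroid markers summed to less in myeloma than in controls, and their part in the Trim10 value was not tested. Trim58, another erythroid member, had 27 reads in all libraries together and was not tested.

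Besides the PHD and bromodomain class, 6 small classes were formed by the domain that follows the coiled coil, and edgeR called no gene of these 6. Trim46 was the one among them at an unadjusted p under 0.05. These classes held only 3, 2, 2, 1, 1 and 1 tested genes. With so few genes, 0 calls is near the background of 6.33% called higher and 4.69% called lower. All 7 genes that rose are among the members outside any of these classes. The 3 tested members with NHL repeats (Trim2, Trim3 and Trim32) had estimates from -0.25 to -0.04, the 2 with a COS box (Trim36 and Trim46) from -0.001 to 0.46, and the 2 anchored in membranes (Trim13 and Trim59) from -0.05 to 0.31. Trim23 with its ARF domain (-0.04), Trim37 with its MATH domain (0.03) and Trim45 with its filamin domain (-0.04) were near 0. Of the 25 members not tested, 5 were at 0 in every library, 14 had up to 10 reads and 6 had more, up to the 27 of Trim58.

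**Figure D5:**
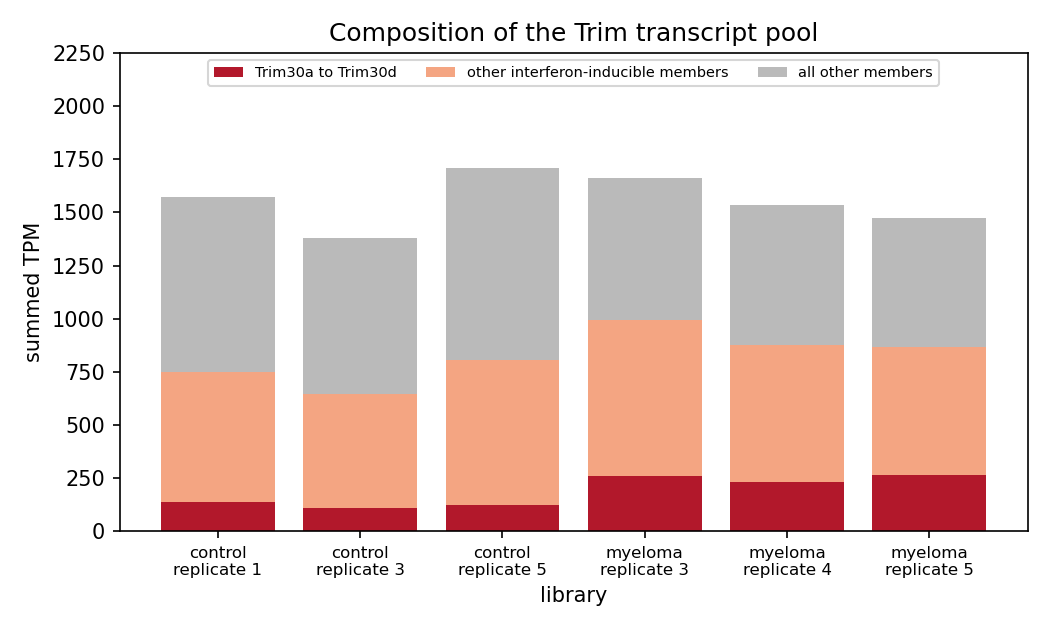
Summed TPM of all 67 Trim genes per library (bars start at 0), divided into Trim30a to Trim30d, the rest of the interferon-inducible members and all other members. The whole height overlaps between groups, at 1474 to 1664 in myeloma and 1378 to 1707 in controls, while the inducible part is 868 to 995 in myeloma and 648 to 808 in controls.

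In TPM the family's total was similar in both groups, at 1558 ± 96.9 (SD, n = 3) in myeloma and 1553 ± 166 in controls, but its makeup differed. Inducible members held 59.8%, 57.1% and 58.9% of the family's TPM in myeloma and 47.8%, 47.0% and 47.3% in controls. The 4 Trim30 genes held 15.7%, 15.1% and 17.9% against 8.74%, 7.76% and 7.19%. Both shares were higher in every myeloma library than in any control, and 3 against 3 values cannot give an exact two-sided permutation p below 0.1. TPM is a share of all transcripts in a library and carries no TMM scaling. The similar total therefore holds for TPM only and does not show that the family's total in CPM was unchanged. Nor is the lower TPM of the other members in myeloma (645 ± 33.7 against 817 ± 85.0) a count of genes that fell. With TMM scaling, the median log2 fold change of the other members tested was -0.07.

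Relatives of the family that bear other names were listed separately. Of 6 such genes 5 were tested, 3 rose and none fell, where 6.33% of all genes tested were called higher and 4.69% lower. Pml, which is TRIM19 and builds nuclear bodies, rose 2.01-fold, from 102, 96.4 and 114 CPM in controls to 217, 164 and 249 CPM in myeloma (log2 fold change 1.01, SE 0.14, edgeR adjusted p = 0.00447). Bspry, which has a B-box and a SPRY domain, rose 2.44-fold, from 6.09, 6.61 and 5.23 CPM to 12.7, 15.9 and 15.1 CPM (1.28, SE 0.21, adjusted p = 0.00775). Rnf135, or Riplet, a RING and SPRY ligase of RIG-I, rose 1.75-fold, from 9.60, 10.1 and 8.93 CPM to 20.7, 15.5 and 13.8 CPM (0.81, SE 0.20, adjusted p = 0.0347). The call of Rnf135 was lost on leaving out myeloma library 3 (0.111) or 4 (0.0786) or any control library (0.0749, 0.102 and 0.112 for 1, 3 and 5). Mid1 (TRIM18) and Mid2 (TRIM1) were not called at 0.83 (SE 0.27) and 0.30 (SE 0.61), and Mefv (TRIM20) was not tested.

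Among 17 genes for RNA and DNA sensing on or with which Trim proteins act, 5 rose and 1 fell, against 6.33% higher and 4.69% lower over all genes tested. A single gene of 17 is near the background share called lower. The median log2 fold change was 0.02, as over all genes tested. The 3 RIG-I-like receptors rose: Ddx58 (RIG-I, 1.02, SE 0.15), Ifih1 (MDA5, 1.74, SE 0.16) and Dhx58 (LGP2, 2.08, SE 0.14). Irf7, the transcription factor that amplifies type I interferon, rose 5.93-fold, from 70.5, 57.3 and 94.4 CPM to 421, 340 and 557 CPM. Ube2n, a ubiquitin-conjugating enzyme used by several Trim ligases, rose 1.28-fold (0.36, SE 0.09), a call lost whichever of the 6 libraries was left out (adjusted p 0.0719 to 0.132). Traf6, a ligase of NF-kB signalling, fell (-0.38, SE 0.08, edgeR adjusted p = 0.0205), from 85.1, 95.4 and 93.1 CPM to 69.5, 71.2 and 68.9 CPM. The Traf6 call was lost on leaving out myeloma library 3 (0.0623) or 4 (0.0618) or control library 3 (0.0958) or 5 (0.0642). Apart from Traf6, the adaptors and kinases between sensor and factor were not called. The groups overlapped for Mavs (0.02) and Traf3 (-0.09). All myeloma values lay above all control values for Tmem173 (0.30) and Tbk1 (0.20). They did so too for the DNA sensor Mb21d1 (cGAS), which was not called (0.61, SE 0.20, edgeR adjusted p = 0.086). The reverse order held for Map3k7 (-0.28), Tab2 (-0.21) and Ikbke (-0.19). Such separation is not rare among all genes tested, as given above. The factor Irf3 (0.01), Zc3hav1, which encodes ZAP (-0.02), and Ube2d3 (-0.08) were not called, and their groups overlapped. None of 8 partners of Trim28 in silencing was called by edgeR, with a median of -0.05, and 1 (Chd3) had an unadjusted p under 0.05. DESeq2 called Chd3 lower and limma-voom called none. Chd3, of the NuRD remodelling complex, had the largest level of the 8, at 814 CPM in myeloma and 991 CPM in controls (-0.28, SE 0.10, edgeR adjusted p = 0.111).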

How the data were processed

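Sorted cells gave total RNA (RNeasy Micro kit) for NEBNext Ultra RNA libraries, per the labels' protocols, a kit that does not mark strand. Tools in the submitters' processing notes are STAR, RSEM, Picard and DESeq2, with no version, and the build is mm10. The deposited expected counts are unnormalized RSEM estimates, per the file headers. The deposited TPM and FPKM were adjusted by RSEM for effective length and library total, per the file headers, and FPKM was not used. The deposited length columns gave the effective length for 1 alternative.

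The tables hold symbols in capitals. By Ensembl ID, 47224 of 47643 genes matched the reference names, and all 67 members kept the same name. Expected counts were rounded, filtered with edgeR's filterByExpr (minimum count 10, minimum total 15) and scaled by TMM. The test was edgeR's quasi-likelihood fit of myeloma minus control (glmQLFit, glmQLFTest, edgeR 4.0.16 in R 4.3.3). P-values were adjusted by Benjamini-Hochberg over 13235 genes, with a threshold of 0.05. Adjusted p-values come from this test unless another tool (limma 3.58.1, DESeq2 1.42.0) is named. The SE is the log2 fold change divided by the square root of F. The biological coefficient of variation was 0.202. On simulated data for these 13235 genes, 67 were changed 1.5-fold, 67 changed 2-fold and 66 changed 4-fold. The test recovered 16.4%, 56.7% and 80.3% of them in that order, with 13 false calls. The real comparison called 838 genes higher and 621 lower, far more than were changed in the simulation, so recovery there may differ. Only the design text ties libraries to separate mice, so the p-values cover no more than the spread among these 6 libraries, which may be technical.

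The members and lists were chosen with earlier results of these data known. Named were all called and all inducible tested members, the 5 other members highest in TPM, the extremes, and exceptions said to be so. Sequences are from RefSeq (GRCm38.p6), positions from GENCODE M21. Shared sequence was counted as 50-base stretches of GENCODE M21 transcripts that occur in a transcript of another gene. Alternatives were other scaling factors, filters, tools, an effective-length offset, removal of immunoglobulin, haemoglobin and mitochondrial genes, a narrower inducible list, a block for the replicate number, and each library left out in turn.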

Additional observations from a re-analysis of the deposited data

How the results depend on the processing

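Trim30a, Trim30d, Trim34a, Trim21 and Trim12c were called higher in all 17 alternative fits. Without 1 library, 5 to 8 Trim genes were higher, all of them inducible, and 0 to 2 were lower, none of them inducible. Over all 13588 to 13745 genes tested in those fits, 331 to 836 were called higher and 123 to 546 lower. With no filter 2 were lower (all Trim genes and the other members alike), where 1337 of 26583 genes were called higher and 1102 lower. The replicate numbers 3 and 5 occur in both groups but nothing says that they mark a shared mouse or day, and deviations of same-numbered libraries correlated at 0.03 and 0.097. In a fit with the number as a block, a library whose number occurs in only 1 group adds nothing to the group difference. That difference then rests on numbers 3 and 5 alone, so calls can be lost through fewer libraries. With the number as a block 5 members were higher and 1 lower, where 362 of all 13235 genes were higher and 142 lower. Trim12a (0.152) and Trim30c (0.0985) lost their calls under it. Bspry (0.0946), Rnf135 (0.136), Traf6 (0.0868) and Ube2n (0.141) lost theirs under the block too. With the effective-length offset Rnf135 (0.0766), Traf6 (0.0835) and Ube2n (0.0688) lost theirs, and with library sizes alone Ube2n did (0.07). With no filter Trim25 (7.24e-05) and Trim65 (0.00483) passed. The narrower list left all 7 calls among inducible members and raised their median to 0.79.

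Estimates that were not called changed sign as follows. With the effective-length offset, Trim14 was at -0.083, Trim56 at -0.054 and Trim27 at -0.153. With library sizes alone Trim27 was at -0.052 and Trim8 at -0.003. With the replicate block Trim27 was at -0.088 and Trim5 at 0.163, and with limma-voom Trim34b was at -0.008. With each library left out in turn, estimates ran from -0.086 to 0.12 for Trim27, -0.024 to 1.377 for Trim30b, -0.537 to 0.551 for Trim34b, -0.118 to 0.092 for Trim5, -0.16 to 0.005 for Trim59 and -0.013 to 0.195 for Trim8. The cause was not tested. Depth limits members with few reads, such as Trim30b, Trim34b and Trim6.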
